A study of Homo sapiens with 24 samples.

Results

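J-domain proteins (the HSP40 family) and the other co-chaperones of HSP70 and HSP90 were followed across 24 expression arrays of HEK293 cells, a human embryonic kidney line. Members were all genes whose array symbol begins with DNAJA, DNAJB or DNAJC, together with BAG1 to BAG5, ZFAND2A, CHORDC1, STIP1, FKBP4, HSPH1, HSP90AA1, HSP90AB1, HSPD1, HSPE1 and HSF1. This gave 59 genes of the 19775 that have a probe set of their own, 44 of them named DNAJ (4 DNAJA, 12 DNAJB and 28 DNAJC). One of the 28, DNAJC3-DT, is a divergent non-coding transcript and not a J-domain protein. AHSA1 and HSF2 were also listed but are not analysed here, since no probe set carried their names alone, and 3 antisense symbols were left out. Each gene was read from the probe set with the highest mean over the 24 arrays, and no filter on low values was applied, so all 59 were tested in every comparison.

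Some cells received no plasmid. Others were transfected for 24 h with an empty pCDNA3 vector, with wild type SIRT6, an NAD-dependent deacetylase of chromatin, or with H133W, the mutant in which the catalytic histidine of SIRT6 is replaced. Each of the 4 kinds of cell was kept without TNFα or given TNFα at 10 ng/ml, which makes 8 conditions with 3 arrays each. The study's methods give the exposure to TNFα as 4 h, while its design text gives 1 h. Transfection was transient and only part of the cells took up plasmid, so each value is a mean over expressing and non-expressing cells of a well. Fewer expressing cells and less RNA per expressing cell therefore cannot be told apart. The labels call the 3 arrays of a condition biological replicates without saying how they were kept separate (wells, plates or days of transfection), and p-values measure the spread between these arrays.

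J-domain proteins deliver unfolded clients to HSP70 and stimulate its ATPase through the J-domain. Nucleotide exchange factors of the BAG and HSP110 families then release ADP and the client. STIP1 passes clients on from HSP70 to HSP90, which works with co-chaperones such as FKBP4 and CHORDC1, while HSPD1 and HSPE1 form the chaperonin of mitochondria. Many of these genes are targets of HSF1, the main transcription factor of the heat shock response, which binds inverted repeats of nGAAn in promoters. Each class of J-domain proteins also has members that serve a single compartment, such as protein import into mitochondria or folding in the endoplasmic reticulum.

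The promoters of the members that rose most in H133W cells are shown with those of the 5 members whose full heat shock element lies before the start, so that the sequences can be read beside the levels. Each run gives the 250 bases before a transcription start in RefSeq on GRCh38.p14, 5′ to 3′ on the strand of the gene. Capitals mark the GAA and TTC units of GAANNTTC and TTCNNGAA.
ZFAND2A (chr7:1160197-1160446, minus strand): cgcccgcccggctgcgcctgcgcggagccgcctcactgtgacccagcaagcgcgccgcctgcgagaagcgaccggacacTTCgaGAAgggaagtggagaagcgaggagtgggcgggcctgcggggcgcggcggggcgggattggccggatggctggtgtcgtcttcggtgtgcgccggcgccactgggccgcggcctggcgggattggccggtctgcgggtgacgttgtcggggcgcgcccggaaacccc
DNAJB1 (chr19:14518398-14518647, minus strand): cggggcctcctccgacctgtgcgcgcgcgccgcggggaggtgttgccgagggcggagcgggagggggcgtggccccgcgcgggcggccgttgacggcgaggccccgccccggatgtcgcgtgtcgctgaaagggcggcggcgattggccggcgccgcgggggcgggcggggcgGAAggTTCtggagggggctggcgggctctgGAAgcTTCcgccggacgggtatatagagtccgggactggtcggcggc
BAG3 (chr10:119651130-119651379, plus strand): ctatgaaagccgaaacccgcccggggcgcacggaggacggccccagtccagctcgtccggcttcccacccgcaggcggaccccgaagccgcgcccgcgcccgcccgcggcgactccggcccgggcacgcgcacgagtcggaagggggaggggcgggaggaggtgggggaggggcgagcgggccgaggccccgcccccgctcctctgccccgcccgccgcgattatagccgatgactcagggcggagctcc
CHORDC1 (chr11:90223050-90223299, minus strand): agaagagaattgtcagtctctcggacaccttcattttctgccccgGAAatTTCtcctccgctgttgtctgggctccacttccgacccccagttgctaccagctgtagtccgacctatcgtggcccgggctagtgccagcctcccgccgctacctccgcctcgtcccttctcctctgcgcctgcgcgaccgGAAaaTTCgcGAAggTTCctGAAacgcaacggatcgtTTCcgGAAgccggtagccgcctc
DNAJB6 (chr7:157336754-157337003, plus strand): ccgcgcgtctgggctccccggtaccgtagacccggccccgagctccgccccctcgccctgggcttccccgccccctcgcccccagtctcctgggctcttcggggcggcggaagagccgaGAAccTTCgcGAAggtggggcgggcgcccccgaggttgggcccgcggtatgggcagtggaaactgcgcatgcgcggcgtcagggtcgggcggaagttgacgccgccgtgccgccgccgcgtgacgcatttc
HSP90AA1 (chr14:102087045-102087294, minus strand): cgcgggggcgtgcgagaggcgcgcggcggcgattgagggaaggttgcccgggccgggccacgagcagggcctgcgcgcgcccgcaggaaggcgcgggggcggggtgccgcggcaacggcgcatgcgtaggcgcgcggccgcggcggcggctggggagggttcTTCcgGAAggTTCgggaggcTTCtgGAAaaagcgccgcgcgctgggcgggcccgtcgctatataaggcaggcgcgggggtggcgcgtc
HSP90AB1 (chr6:44247693-44247942, plus strand): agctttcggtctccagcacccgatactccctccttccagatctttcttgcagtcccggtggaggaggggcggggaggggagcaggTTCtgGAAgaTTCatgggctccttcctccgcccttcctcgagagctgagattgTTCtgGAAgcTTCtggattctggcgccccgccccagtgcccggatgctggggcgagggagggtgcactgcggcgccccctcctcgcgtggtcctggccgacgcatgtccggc
HSPD1 (chr2:197499841-197500090, minus strand): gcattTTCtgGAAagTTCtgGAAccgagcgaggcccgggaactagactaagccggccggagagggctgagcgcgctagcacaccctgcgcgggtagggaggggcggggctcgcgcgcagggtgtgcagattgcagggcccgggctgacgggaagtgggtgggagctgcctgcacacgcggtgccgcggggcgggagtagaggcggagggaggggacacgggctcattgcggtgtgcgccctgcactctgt

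The full heat shock element searched on both strands has a further unit: GAANNTTC followed directly by NNGAA, or TTCNNGAA followed directly by NNTTC. It contains both shorter motifs by construction. In windows that run from 250 bases before to 50 bases after a start, the full element occurred in 172 of 35116 promoters (0.49%). Among the members, 52 genes had 70 such windows, and 6 windows (8.57%) held it, those of CHORDC1, DNAJA1, DNAJB6, HSP90AA1, HSP90AB1 and HSPD1. In DNAJA1 it lies after the start, outside the stretches printed. GAANNTTC occurred in 6.77% of all windows and 17.1% of member windows, and TTCNNGAA in 7.74% and 14.3%. The search allowed no mismatch in any unit, so elements with an imperfect unit were not counted. ZFAND2A, DNAJB1 and BAG3, the 3 members with the largest rise in H133W cells, did not hold an exact full element. DNAJB1 has 3 windows. The one printed held GAANNTTC at 77 and 47 bases before the start, another held a copy just after its start, and the remaining one held neither motif. ZFAND2A held TTCNNGAA once, and the BAG3 window held neither. Of the 6 genes with the full element, CHORDC1 and DNAJB6 passed upward by adjusted p in H133W cells and the other 4 did not pass the test. The pass of CHORDC1 did not hold in all fits that left out an array.

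The identity of the cells and the quality of the arrays were checked first. VIM, KRT8, KRT18, NEFL, INA and LIN28B, of 9 genes listed for HEK293 cells, lay between the 72.5 and the 99.2 percentile of all probe sets, whereas NEFM, PAX2 and LHX1 lay near the middle. The summed level of the 9 ranged from 13.67 to 13.86 on the log2 scale over all arrays. None of 6 blood cell genes lay above the 41.6 percentile. Of 8 genes listed for fibroblasts COL1A1 and COL3A1 lay at the 68.8 and 69.4 percentile, close to INA, and the other 6 at or below the 40.2. The summed level of these 8 was 8.57 to 8.66 in H133W cells without TNFα and 8.81 to 9.16 in empty vector cells, which did not overlap, and 8.59 to 9.02 and 8.69 to 8.80 with TNFα, which did. Sums of the other lists were apart in 1 state each. The blood cell sum without TNFα was 6.22 to 6.32 in H133W and 6.41 to 6.45 in empty vector cells. The HEK293 sum with TNFα was 13.67 to 13.72 in H133W and 13.74 to 13.76 in empty vector cells. Averaged over both states, PDGFRA was called lower in H133W cells (-0.69 ± 0.13, limma adjusted p = 0.00150), but its values, 2.76 to 5.20, lay below the median of every array. COL3A1 was lower as well (-0.36 ± 0.08, adjusted p = 0.00885), under the fold threshold. The part of these genes in the H133W results was not tested. The 3 arrays of H133W cells with TNFα were not alike. In replicate 3 the 3′ end of the actin control exceeded its 5′ end by 3.03 on the log2 scale, against 1.33 to 2.05 on all other arrays, and the array weight estimated by limma was 0.0844, the lowest of the 24. Where a call, or a pass in the averaged H133W comparison, rested on this array, both values are given. The array has a pair of probe sets for SIRT6, the gene carried by the plasmids. Averaged over both states they were higher in H133W than in empty vector cells by 0.98 ± 0.21 and 0.28 ± 0.07 (SE, limma adjusted p = 0.00421 and 0.0149). In SIRT6 cells the differences were 0.67 ± 0.21 and 0.11 ± 0.07 (adjusted p = 0.189 and 0.684). The study also followed both proteins by Western blot, which is not analysed here.

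The comparison of H133W with empty vector cells asked which transcripts follow the catalytic mutant beyond transfection itself. ZFAND2A, DNAJB1 and BAG3 were called, all higher in H133W cells. A call here means an adjusted p below 0.05 by limma and a change over 1.5-fold. Without TNFα 1 member of 59 was called (ZFAND2A), where 0.702% of all 54675 probe sets were called higher and 0.0677% lower. With TNFα 3 were called, where 1.05% of all probe sets were called higher and 0.346% lower. Averaged over both states 2 were called, DNAJB1 and ZFAND2A, beside 0.765% of all probe sets called higher and 0.064% lower. The median change of the 59 members was 0.052 without TNFα and 0.012 with it, against medians of -0.017 and -0.0066 over all probe sets. No member was called lower.

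ZFAND2A, an arsenite- and heat-inducible zinc finger protein associated with the proteasome, had the largest averaged change of all members in H133W cells on the probe sets used. On the log2 scale its level in empty vector cells was 8.97, 9.12 and 9.09 without TNFα and 8.95, 8.96 and 8.88 with it. In H133W cells it was 9.79, 9.78 and 9.84 without TNFα and 9.76, 9.79 and 9.88 with it. All 6 H133W arrays lay above all 6 empty vector arrays. TNFα itself changed ZFAND2A by -0.13 ± 0.07 (SE, adjusted p = 0.480) in empty vector cells and by 0.01 ± 0.07 (adjusted p = 0.956) in H133W cells, neither past the limma test. The change with H133W was 0.74 ± 0.07 (SE, 1.67-fold, limma adjusted p = 2.38e-06) without TNFα and 0.88 ± 0.07 (1.84-fold, adjusted p = 1.93e-07) with it. The difference between the 2 changes was 0.14 ± 0.10 (SE, adjusted p = 0.613 for the interaction, 95% interval -0.06 to 0.35).

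DNAJB1, the heat-inducible cytosolic J-domain protein that works with HSP70, was measured by a pair of probe sets. On the main one its level was 11.15, 11.25 and 11.07 in empty vector cells without TNFα and 11.10, 11.06 and 11.11 with it. In H133W cells it was 11.55, 11.61 and 11.55 without TNFα and 11.996, 11.95 and 11.95 with it. No array of H133W cells overlapped those of empty vector cells, and the H133W arrays with TNFα stood above those without. The rise was 0.41 ± 0.05 (SE, 1.33-fold, limma adjusted p = 7e-05) without TNFα, which is under the fold threshold, and 0.87 ± 0.05 (1.83-fold, adjusted p = 2.78e-09) with it. The second probe set of DNAJB1 gave 0.68 and 1.06, past both thresholds in each state and, with TNFα, more than ZFAND2A. Without the array of high actin ratio the change with TNFα was 0.88 for DNAJB1 and 0.84 for ZFAND2A.

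The effect of H133W on DNAJB1 was larger with TNFα than without it by 0.46 ± 0.07 (SE, 95% interval 0.31 to 0.61), with an adjusted p of 0.0856 for the limma interaction. This is the smallest interaction p of the members. The interaction passed the threshold under 5 other settings of the fit. Of 12 fits that each left out 1 array, it passed in 1, without replicate 3 of the empty vector cells. It therefore did not pass without the array of high actin ratio. In empty vector cells TNFα changed DNAJB1 by -0.06 ± 0.05 (SE, limma adjusted p = 0.692), and in H133W cells by 0.40 ± 0.05 (adjusted p = 9.26e-05). Over all probe sets 0.00366% passed in this interaction.

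BAG3, the exchange factor that couples HSP70 and small heat shock proteins to autophagy, rose in H133W cells with TNFα. Its level there was 9.59, 9.56 and 9.97, against 9.02, 9.03 and 9.02 in empty vector cells with TNFα. Without TNFα it was 9.22, 9.28 and 9.27 in H133W cells and 8.90, 9.29 and 8.92 in empty vector cells, where replicate 2 reached the H133W level. The highest value with TNFα, 9.97, came from the H133W array that stood apart in its actin control. The change with TNFα was 0.68 ± 0.10 (SE, 1.61-fold, limma adjusted p = 3.11e-04). Without that array it was 0.55 ± 0.09 (adjusted p = 0.00116), still past the p threshold but under the fold threshold, so the call rests on it. Without TNFα the difference was 0.22 ± 0.10 (adjusted p = 0.323).

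**Figure D1:**
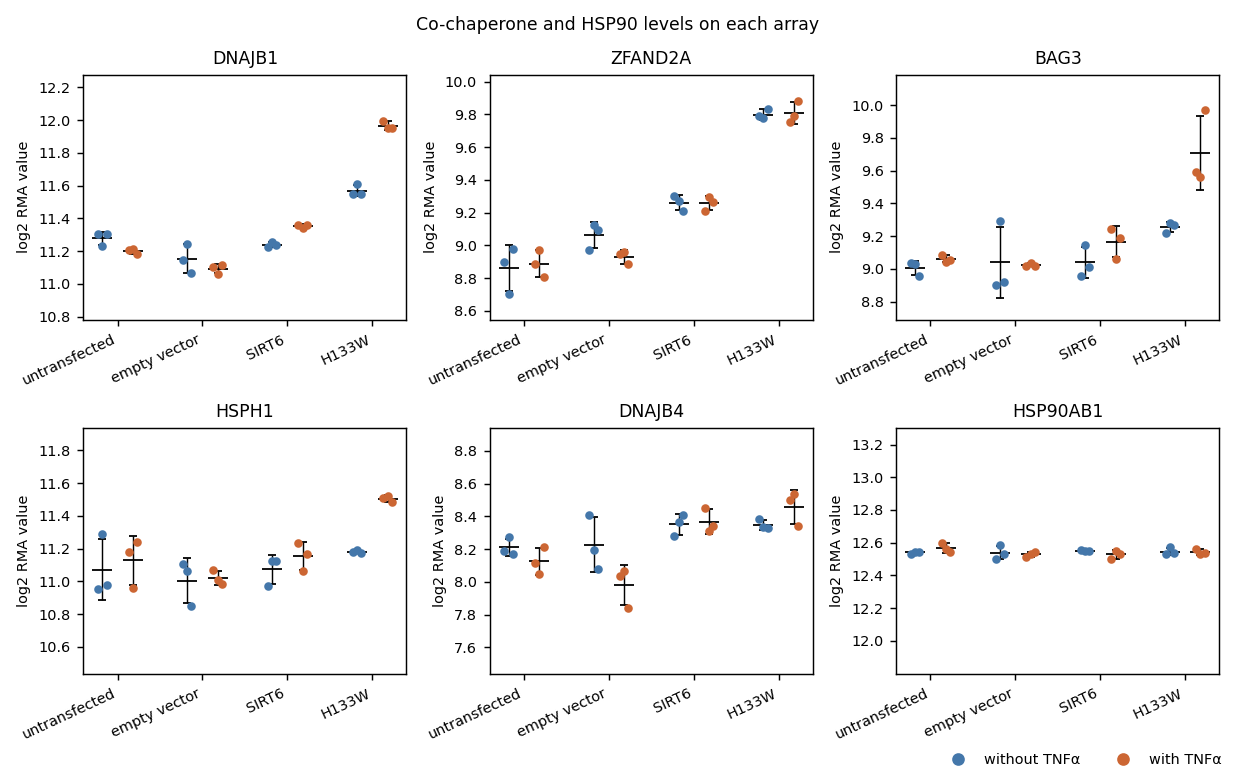
Log2 level of 6 members on each of the 24 arrays, without TNFα in blue and with TNFα in orange, where the horizontal line is the mean and the bar 1 SD of 3 arrays. Each panel spans 1.5 log2 units. DNAJB1 and ZFAND2A of H133W cells lie above every other condition, whereas HSP90AB1 stays between 12.50 and 12.60 on all arrays.

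Smaller rises were spread over several kinds of co-chaperone. By adjusted p alone, with no fold threshold, 11 of the 59 members (18.6%) were higher in H133W than in empty vector cells averaged over both states, where 4.86% of all probe sets passed upward. They were BAG3, CHORDC1, DNAJB1, DNAJB2, DNAJB4, DNAJB5, DNAJB6, DNAJC1, DNAJC2, HSPH1 and ZFAND2A. Another 2 members (3.39%), DNAJC12 and DNAJC19, were lower, where 4.4% of all probe sets passed downward. With TNFα alone, 9 members passed upward (15.3%, against 2.97% of all probe sets) and 1, DNAJC19, downward (1.69%, against 2.28%). Without TNFα 2 passed upward, DNAJB1 and ZFAND2A (3.39%, against 2% of all probe sets), and none downward (against 1.03%), while 8 members had an unadjusted p below 0.05, beside 14.7% of all probe sets. A recount without the array of high actin ratio, added after the data were seen, again gave 11 members upward on average, with DNAJC27 in and DNAJB5 out, and left DNAJC19 as the 1 downward (6.06% and 6.35% of all probe sets). With TNFα alone it gave 7 upward and 0 downward (2.26% and 1.36%), where DNAJB5, DNAJC1 and DNAJC19 did not pass.

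Among the class A and B J-domain proteins, all 5 that passed were of class B, out of 16 measured. DNAJB4, a close relative of DNAJB1, read 8.38, 8.33 and 8.33 in H133W cells without TNFα and 8.50, 8.54 and 8.34 with it. In empty vector cells it read 8.41, 8.19 and 8.08 without TNFα and 8.03, 8.07 and 7.84 with it, so the groups overlapped without TNFα and were apart with it. Its averaged rise was 0.30 ± 0.06 (SE, limma adjusted p = 0.00218). A second DNAJB4 probe set gave 0.11 and did not pass.

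DNAJB2, which carries ubiquitin-interacting motifs and directs clients to the proteasome, rose by 0.30 ± 0.06 (SE, limma adjusted p = 0.00142). DNAJB6, a suppressor of polyglutamine aggregation, rose by 0.20 ± 0.05 (SE, adjusted p = 0.00625), less than any other class B member that passed. DNAJB5 rose by 0.25 ± 0.07 (SE, adjusted p = 0.0353), but its values, 4.30 to 4.96, lay below the median of every array, and its second probe set gave 0.00. Without the array of high actin ratio DNAJB5 did not pass (0.19 ± 0.07, adjusted p = 0.0683). None of the 4 class A genes passed. DNAJA1, a cytosolic form, changed by 0.06 ± 0.05 (SE, 95% interval -0.04 to 0.16, adjusted p = 0.543).

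HSPH1, the HSP110 exchange factor of the cytosol, read 11.18, 11.19 and 11.18 in H133W cells without TNFα and 11.51, 11.52 and 11.49 with it. In empty vector cells it read 11.10, 11.06 and 10.85 without TNFα and 11.07, 11.01 and 10.99 with it. The H133W arrays lay above the empty vector arrays in both states. The change was 0.18 ± 0.09 (SE, limma adjusted p = 0.381) without TNFα and 0.49 ± 0.09 (adjusted p = 0.00291) with it. Of its other probe sets one gave an averaged rise of 0.34 (adjusted p = 0.0137) and one gave 0.11 (adjusted p = 0.423).

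The other BAG genes did not pass the test. BAG1 changed by 0.12 ± 0.04 (SE), BAG2 by -0.15 ± 0.08, BAG4 by -0.01 ± 0.07 and BAG5 by -0.05 ± 0.16 (limma adjusted p between 0.118 and 0.971). BAG5 read 11.07, 11.17 and 9.83 in H133W cells with TNFα, the last on the array with the high actin ratio. STIP1 read 12.005, 11.94 and 11.06 in the same condition. Without that array the averaged change was -0.06 ± 0.06 for BAG2, 0.06 ± 0.06 for BAG4, 0.16 ± 0.09 for BAG5 and 0.06 ± 0.05 for STIP1 (SE), none past the test, and the last 3 had the other sign.

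HSP90 itself and most of its partners did not pass the test. HSP90AB1, the constitutive cytosolic HSP90, had an SD of 0.023 over all 24 arrays, the smallest of the 59 members, and its averaged change in H133W cells was 0.01 (95% interval -0.06 to 0.08). The interval was 0.00 to 0.15 for HSP90AA1, the inducible form, -0.02 to 0.13 for FKBP4, an immunophilin that serves steroid receptors, and -0.32 to 0.14 for STIP1. Each of these upper bounds is under the 1.5-fold threshold. CHORDC1, a zinc-binding HSP90 co-chaperone, was the only one of the 5 HSP90 genes measured that passed, at 0.25 ± 0.08 (SE, limma adjusted p = 0.0409). With single arrays left out, its adjusted p reached 0.120, which does not pass. CHORDC1 read 11.55, 11.59 and 11.52 in H133W cells with TNFα against 11.30, 11.26 and 11.22 in empty vector cells with TNFα, with no overlap. Its second probe set gave 0.17 and did not pass (adjusted p = 0.670). HSF1 differed by 0.09 ± 0.10 (SE, adjusted p = 0.676). It read 7.20, 7.22 and 7.85 in H133W cells with TNFα, the last on the array of high actin ratio, and without that array the difference was -0.02 ± 0.07. The mitochondrial chaperonin genes HSPD1 and HSPE1 differed by -0.04 ± 0.06 and -0.06 ± 0.04 (adjusted p = 0.742 and 0.371), and by 0.02 ± 0.04 and -0.04 ± 0.03 without it.

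Of the 28 class C genes 2 rose and 2 fell. DNAJC1, a J-domain protein of the endoplasmic reticulum membrane, rose by 0.28 ± 0.06 (SE, limma adjusted p = 0.00275), and its 2 other probe sets rose by 0.32 and 0.21. DNAJC2, which acts on nascent chains at the ribosome, rose by 0.15 ± 0.04 (SE, adjusted p = 0.0344). With single arrays left out, the limma adjusted p of DNAJC2 reached 0.0958, which does not pass. DNAJC19, a subunit of the import motor of the mitochondrial inner membrane, fell by 0.23 on the log2 scale (SE 0.05, adjusted p = 0.00440). DNAJC12, which binds the aromatic amino acid hydroxylases, fell by 0.17 (SE 0.05, adjusted p = 0.0497), and did not pass without the array of high actin ratio (-0.14 ± 0.05, adjusted p = 0.0877). By compartment, the 10 J-domain proteins of the endoplasmic reticulum had a median of -0.0050, the 7 of mitochondria -0.04, and the 5 of the nucleus, splicing and the ribosome 0.04, beside -0.01 over all probe sets.

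**Figure D2:**
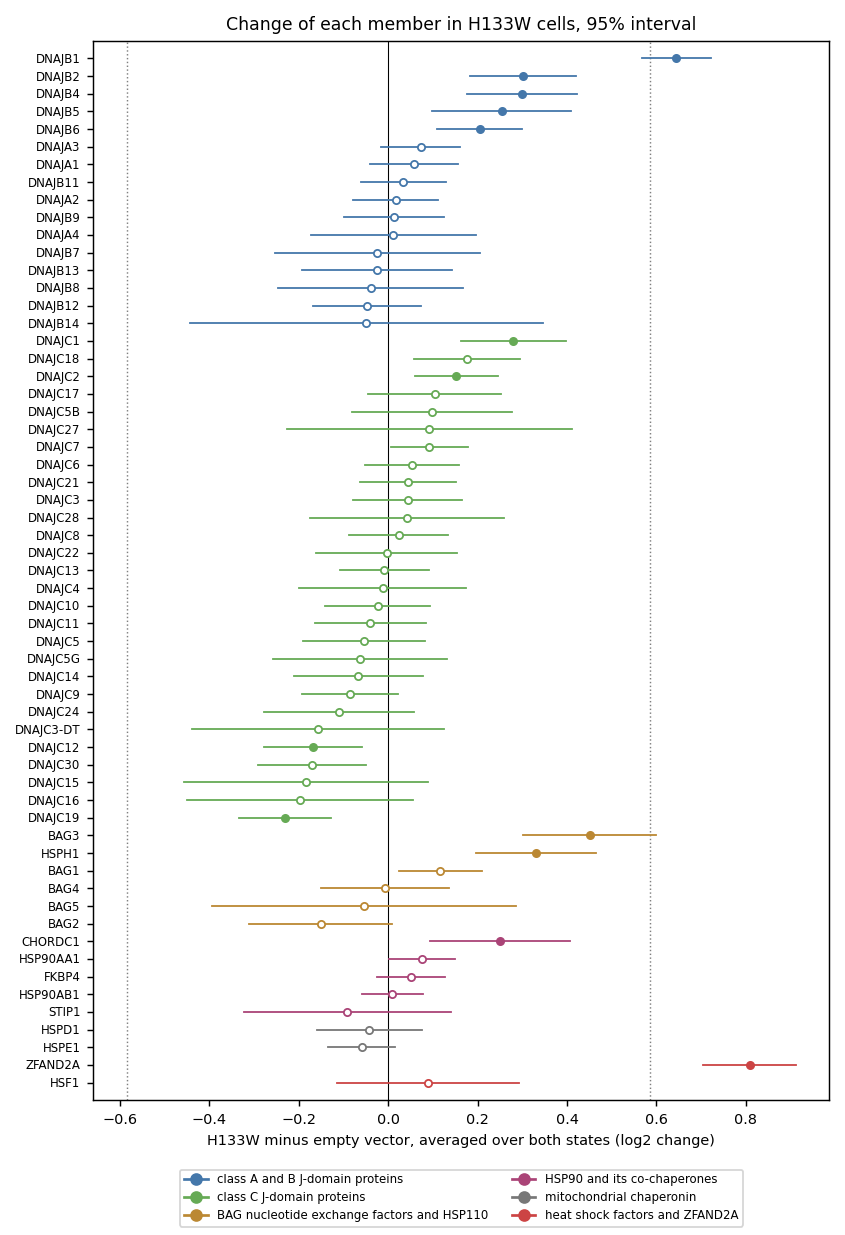
Change of each of the 59 members between H133W and empty vector cells, averaged over both states, in log2 units with the 95% interval. Colours give the role of the member, filled points passed an adjusted p of 0.05 and dotted lines mark 1.5-fold. Only ZFAND2A (0.81) and DNAJB1 (0.64) lie beyond the dotted lines.

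**Figure D3:**
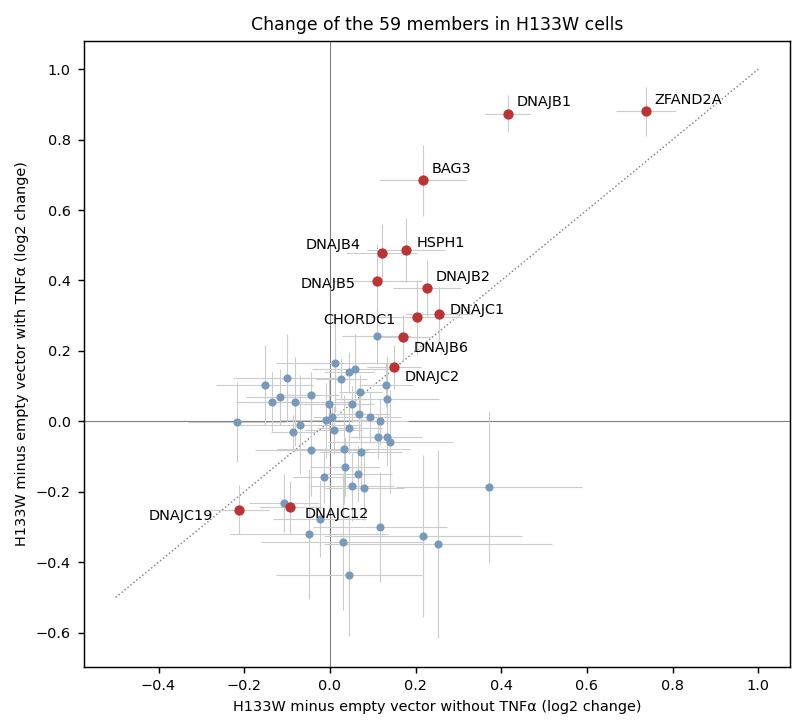
Change between H133W and empty vector cells without TNFα on the horizontal axis and with TNFα on the vertical axis, in log2 units for the 59 members, with bars of 1 SE and a dotted line of equal change. The axes rest on separate arrays that share an estimate of the spread. The named points are the 13 members that passed by adjusted p in the averaged comparison, among which ZFAND2A, DNAJB1 and BAG3 have the largest changes with TNFα (0.88, 0.87 and 0.68).

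The chaperones that these genes serve were set beside them from fixed lists. HSPA6, the strictly inducible HSP70, was higher in H133W than in empty vector cells by 3.48 ± 0.15 (SE, limma adjusted p = 3.14e-11) without TNFα and by 4.09 ± 0.15 (adjusted p = 1.34e-12) with it. It was the only one called of 11 HSP70 genes measured, out of 14 listed. Genes without a probe set of their own were not measured, in this list or in those that follow. CRYAB, a small heat shock protein that keeps unfolded proteins soluble, was higher by 3.78 ± 0.08 and 3.41 ± 0.08 (SE, adjusted p = 1.62e-16 and 1.16e-15), the only one called of 10 small heat shock proteins. In empty vector cells the means of HSPA6 (4.97 and 4.82) and CRYAB (4.25 and 3.97) lay below the median of every array and were not shown to be above background, so these differences have no exact size. None of 25 further co-chaperones was called in either state, with changes from -0.19 to 0.21 without TNFα and from -0.08 to 0.42 with it. None of 7 subunits of the cytosolic chaperonin TRiC was called, and their changes stayed between -0.08 and 0.05.

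Wild type SIRT6 was compared with the same empty vector arrays, to ask whether the active enzyme moved the same genes. No member was called without TNFα, with TNFα or on average, where 0.0348%, 0.0695% and 0.0585% of all probe sets were called in either direction. At an unadjusted p below 0.05 there were 4 members without TNFα, 9 with it and 10 on average, beside 5.57%, 6.61% and 9.74% of all probe sets. By adjusted p alone, 3 members (5.08%) passed upward on average, DNAJB1, DNAJB4 and ZFAND2A, where 0.529% of all probe sets did, and none passed downward (0.115% of all probe sets did). Both comparisons share the 6 empty vector arrays, so the values are given side by side and not correlated.

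ZFAND2A read 9.30, 9.27 and 9.21 in SIRT6 cells without TNFα and 9.21, 9.30 and 9.27 with it. These values lay above all empty vector arrays and below all H133W arrays. Its averaged rise was 0.26 ± 0.05 (SE, 1.20-fold, limma adjusted p = 0.0130). DNAJB1 read 11.23, 11.25 and 11.24 without TNFα and 11.36, 11.34 and 11.36 with it, and rose by 0.17 ± 0.04 (SE, 1.13-fold, adjusted p = 0.0322). Its SIRT6 arrays with TNFα lay above those of empty vector cells, but those without TNFα overlapped them. In untransfected cells the mean of DNAJB1 was 11.28 without and 11.20 with TNFα, against 11.24 and 11.35 in SIRT6 cells. DNAJB4 rose by 0.26 ± 0.06 (SE, adjusted p = 0.0491). BAG3, at 0.07 ± 0.07 (SE, adjusted p = 0.833), did not pass. Of the chaperones set beside the members, HSPA6 and CRYAB were also higher in SIRT6 than in empty vector cells. The averaged rise was 0.52 ± 0.11 for HSPA6 and 0.57 ± 0.06 for CRYAB (SE, limma adjusted p = 0.0237 and 2.58e-05). CRYAB was called with TNFα, at 0.66 ± 0.08 (1.58-fold, adjusted p = 0.00141). Both genes were dim in empty vector cells, so these differences have no exact size either.

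H133W and SIRT6 cells were compared directly as well, since both express a SIRT6 protein from the same kind of plasmid. The SIRT6 probe sets themselves read higher in H133W cells, by 0.40 ± 0.29 and 0.01 ± 0.10 (SE) without TNFα. With it the differences were 0.21 ± 0.29 and 0.33 ± 0.10, and none passed (limma adjusted p from 0.116 to 0.992). A different amount of SIRT6 RNA and the mutation itself cannot be told apart here. Without TNFα no member was called, where 0.119% of all probe sets were called in either direction, and 6 members had an unadjusted p below 0.05, beside 8.69% of all probe sets. With TNFα 1 member was called, DNAJB1, where 0.278% of all probe sets were called higher and 0.0549% lower. DNAJB1 was higher in H133W cells by 0.33 ± 0.05 (SE, limma adjusted p = 0.00339) without TNFα and by 0.61 ± 0.05 (1.53-fold, adjusted p = 2.24e-06) with it. ZFAND2A was higher by 0.54 ± 0.07 (adjusted p = 6.65e-04) and 0.55 ± 0.07 (adjusted p = 4.10e-04), just under the fold threshold in both states. BAG3 was higher by 0.54 ± 0.10 (SE, adjusted p = 0.00971) with TNFα, where its highest H133W value, 9.97, came from the array of high actin ratio. DNAJC18, a J-domain protein of the endoplasmic reticulum, was higher by 0.42 ± 0.08 (SE, adjusted p = 0.0114) with TNFα.

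DNAJB4 and DNAJB6 were not told apart between the wild type and the mutant. With TNFα the difference was 0.09 for DNAJB4 (95% interval -0.08 to 0.26) and 0.01 for DNAJB6 (-0.12 to 0.15), neither past the test. DNAJB6 read 11.60, 11.56 and 11.52 in SIRT6 cells with TNFα and 11.63, 11.68 and 11.42 in H133W cells with TNFα, which overlapped through replicate 3 of H133W, the array of high actin ratio. Without it the other 2 lay above all SIRT6 arrays, for DNAJB4 as well (8.50 and 8.54 against at most 8.45), and the difference was 0.15 for DNAJB4 (95% interval -0.03 to 0.33) and 0.09 for DNAJB6 (-0.03 to 0.21), again not past the test.

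**Figure D4:**
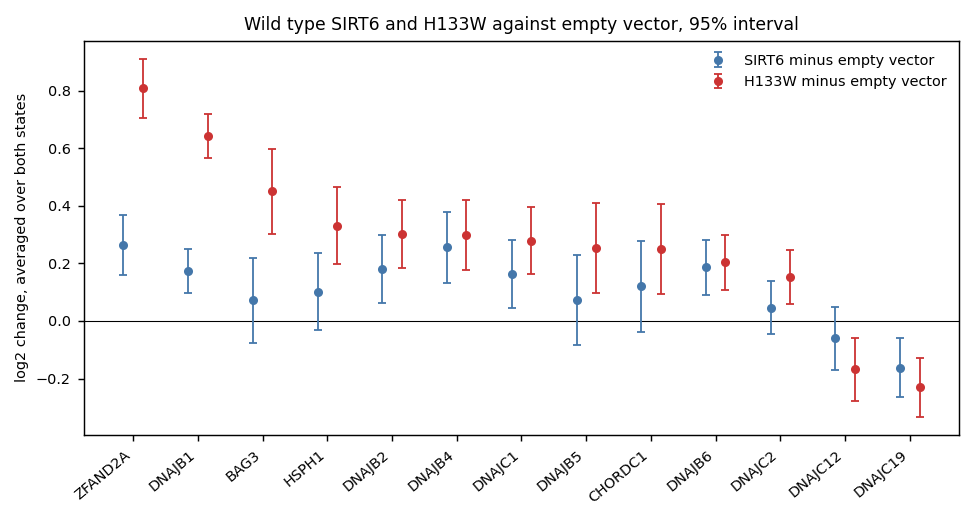
Change from empty vector cells in SIRT6 cells (blue) and H133W cells (red), averaged over both states, in log2 units with the 95% interval, for the 13 members that passed in H133W cells. Both series share the same 6 empty vector arrays. ZFAND2A reads 0.26 in SIRT6 and 0.81 in H133W cells, whereas DNAJB6 reads 0.19 and 0.20.

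Transfection by itself was examined with the empty vector and the untransfected cells. No member was called without or with TNFα, where 0.0933% and 0.0329% of all probe sets were called, and 3 members had an unadjusted p below 0.05 in each state, beside 12.4% and 11.5% of all probe sets. The median change of the members was -0.0053 and -0.033, beside -0.0021 and -0.018 over all probe sets.

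The response to TNFα asked which members follow the cytokine in each kind of cell. DNAJC22, a membrane-spanning J-domain protein, fell in all 4 kinds of cell and was the only member called in 3 of them. In untransfected cells 0.174% of all probe sets were called lower and 0.602% higher, in empty vector cells 0.276% and 0.583%, in SIRT6 cells 0.342% and 0.503%, and in H133W cells 0.572% and 0.543%. No member was called higher with TNFα. By adjusted p alone over the mean of the 4, 2 members (3.39%) rose, DNAJB1 and DNAJB6, and 5 (8.47%) fell, DNAJB2, DNAJC15, DNAJC18, DNAJC22 and DNAJC28, beside 4.6% and 7.1% of all probe sets. Without the H133W array of high actin ratio the counts were 6 up and 7 down (7.12% and 11.2% of all probe sets), and the 7 named here were among them. The others, which passed only without that array, were BAG2, BAG3, DNAJA1 and DNAJB7 upward and DNAJC1 and DNAJC4 downward.

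DNAJC22 read 7.80, 7.51 and 7.69 in untransfected cells without TNFα and 6.87, 6.81 and 6.78 with it. In empty vector cells it read 7.49, 7.49 and 7.59 without and 6.47, 6.66 and 6.57 with TNFα. In SIRT6 cells it read 7.69, 7.74 and 7.49 without and 6.72, 6.62 and 6.67 with TNFα. In H133W cells it read 7.62, 7.48 and 7.44 without and 6.51, 6.34 and 6.87 with TNFα. All 12 arrays with TNFα lay below all 12 without.

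The fall of DNAJC22 came to -0.85, -0.95, -0.97 and -0.94 (SE 0.11 each) in untransfected, empty vector, SIRT6 and H133W cells, and to -0.93 ± 0.05 (SE, 1.90-fold lower, limma adjusted p = 1.13e-10) on average, where 0.265% of all probe sets were called lower and 0.578% higher. The 2 other DNAJC22 probe sets fell by 1.01 and 0.63 on average. H133W, wild type SIRT6 and the vector did not pass a test of a different response of DNAJC22, and no member passed in any of the 3 interaction comparisons, with unadjusted p below 0.05 for 4 members with H133W, 2 with SIRT6 and 0 with the vector, beside 8.46%, 2% and 2.42% of all probe sets. By adjusted p 0.00366%, 0% and 0% of all probe sets passed.

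DNAJC15, a mitochondrial J-domain protein of the inner membrane, was called lower with TNFα in H133W cells alone. It read 6.25, 6.29 and 6.12 without TNFα and 5.74, 5.95 and 4.91 with it, the lowest value on the array with the high actin ratio. The change was -0.68 ± 0.18 (SE, limma adjusted p = 0.0473). Without that array it was -0.37 ± 0.13 (adjusted p = 0.174), so the call rests on it. The averaged change over the 4 kinds of cell was -0.45 ± 0.09 (adjusted p = 0.00234), and the 2 other DNAJC15 probe sets gave -0.10 and 0.00.

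The other members that passed in the averaged response moved less. DNAJC28 fell by 0.35 on the log2 scale (SE 0.07, limma adjusted p = 0.00264), DNAJB2 by 0.20 (SE 0.04, adjusted p = 0.00160) and DNAJC18 by 0.14 (SE 0.04, adjusted p = 0.0261). The limma adjusted p of DNAJC18 reached 0.0542 with single arrays left out, which does not pass. DNAJC28 was dim, with a mean of 5.22 at the 48.6 percentile of all probe sets. DNAJC18 had means of 8.86 without and 8.85 with TNFα in H133W cells, and of 8.67 and 8.43 in SIRT6 cells. DNAJB6 rose by 0.15 ± 0.03 (SE, limma adjusted p = 0.00373). Its means without and with TNFα were 11.25 and 11.28 in untransfected cells, and 11.34 and 11.56 in SIRT6 cells. DNAJB1 rose by 0.09 ± 0.03 (SE, adjusted p = 0.0235), a mean of -0.06 in empty vector and 0.40 in H133W cells among others, and the heat shock factor HSF1 differed by -0.05 ± 0.07 (adjusted p = 0.696).

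**Figure D5:**
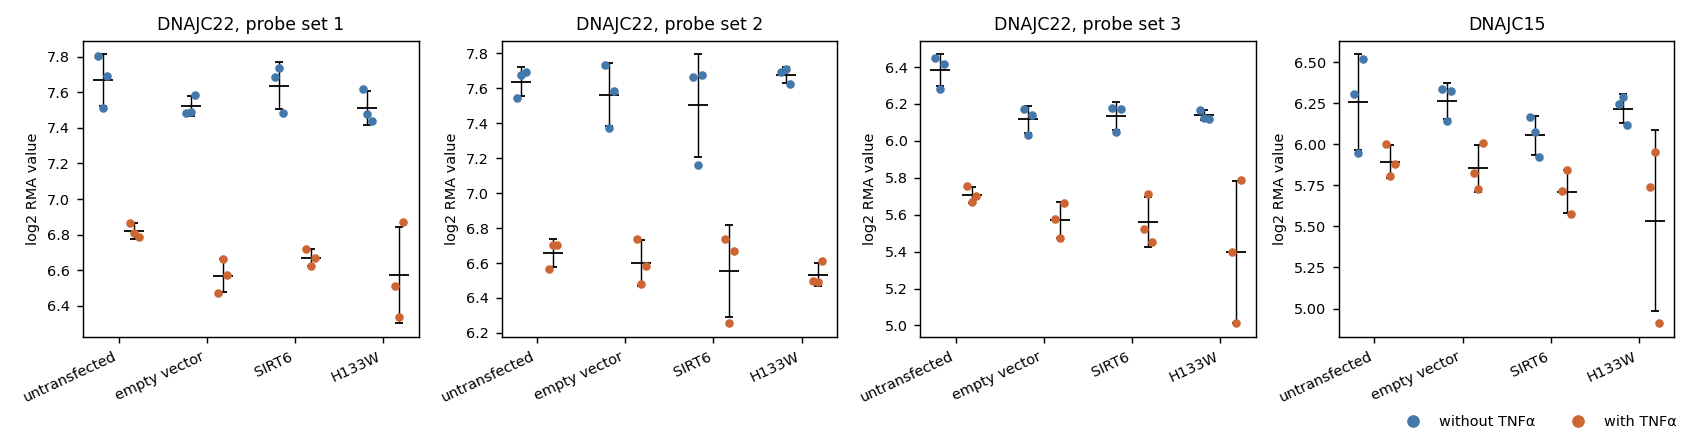
Log2 level of the 3 DNAJC22 probe sets and of DNAJC15 on each array, without TNFα in blue and with TNFα in orange, with the mean and 1 SD of 3 arrays. The DNAJC22 arrays with TNFα lie below those without in every kind of cell on the first probe set, and the lowest DNAJC15 value (4.91) is 1 array of H133W cells with TNFα.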

How the data were processed

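RNA of 24 wells was hybridised to Affymetrix HG-U133 Plus 2.0 arrays. The authors applied RMA in ArrayStudio 4.0, and the deposited values are log2 signals of 54675 probe sets, taken here with no further scaling. Arrays have no read depth, so their number, 3 for each condition, limits the precision. The platform's gene table names 42898 probe sets, 41097 of them with a single gene.

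With limma 3.58.1 in R 4.3.3 (lmFit and eBayes, 16 residual degrees of freedom) 1 mean was estimated per condition over the whole array. Benjamini-Hochberg adjustment covered all 54675 probe sets in each comparison. Calls used the study's thresholds, an adjusted p below 0.05 and a change over 1.5-fold, and interactions the p alone. Errors after ± are standard errors of the fit. The text names members called in any comparison, members past the p threshold in the averaged comparisons, and the BAG, HSP90, chaperonin and HSF1 genes. DNAJA1 was named after its values were seen. Members, gene lists and comparisons were chosen with earlier results of these data known. The fit was tested on simulated data. Promoter windows were searched with Python 3.11.15.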

Additional observations from a re-analysis of the deposited data

How the results depend on the processing

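The count of members called by TNFα in H133W cells, 2 in the main analysis, fell to 1 (DNAJC22, with DNAJC15 lost) with a plain linear model, with array weights, with arrays centred on their median, after a second quantile normalization, with the mean of all probe sets of a gene, with the replicate number as a block and without the 3 arrays of lowest weight. It fell to 0 in a fit of the 6 arrays of the comparison alone, where the H133W and SIRT6 comparison with TNFα also fell from 1 to 0. Leaving out single arrays gave 2 to 4 members for H133W against empty vector with TNFα, 1 to 3 for TNFα in H133W cells, 1 to 2 for H133W against SIRT6 with TNFα and 0 to 1 for the H133W interaction. That interaction rose from 0 to 1 member, DNAJB1, with a plain linear model, a variance trend, array weights, dim probe sets left out and arrays centred on their median. With no fold threshold 7 members passed in the averaged TNFα response and 3 in SIRT6 against empty vector cells on average. H133W against empty vector gave 2 without TNFα, 10 with it and 13 on average. The shares of all probe sets for these counts are given above. TNFα in H133W cells gave 4, and H133W against SIRT6 gave 2 without and 4 with TNFα. For these no share of all probe sets was taken, so they are not read as an excess. With a 2-fold threshold every comparison that had a call fell to 0. With the probe set of largest SD in place of the highest mean, H133W against empty vector without TNFα had 2 members, DNAJB1 and ZFAND2A. The cause was not tested.

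The same-numbered arrays of different conditions did not deviate together: 8 of 36 pairs correlated above 0.1, with values from -0.38 to 0.28, so the numbers were not read as pairs, and the replicate block changed no other count of calls. No called value changed sign. Without replicate 3 of H133W cells with TNFα, 9 of the 59 averaged changes with H133W did, none of them past the test, among them BAG4, BAG5, HSF1, HSPD1 and STIP1. No replicate arrays were identical, and the centred and requantiled values moved the median of all probe sets by at most 0.05 in any comparison.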
